A study of Bos taurus with 18 samples.

Results

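The early response to lipopolysaccharide (LPS) was measured in dermal fibroblast cultures from Holstein heifers sampled at 16 months of age, by setting the libraries labelled 2 h after LPS against the libraries labelled 0 h. These are 6 of the 18 RNA-Seq libraries of the study, chosen by their labels, with 1 library from each of 3 animals at each time. The study grew fibroblasts from the same 3 animals at 5 and 16 months of age and sampled each culture at 0, 2 and 8 h of LPS, to ask how the response changes with age. Each 16-month culture was a single aliquot of frozen cells of the same low passage, revived in DMEM with serum, exposed to 100 ng/ml of LPS in side-by-side wells, and lysed with the wells of a time point pooled. Cultures were chosen from a larger collection because their animals responded at a middle level, so the spread between animals is that of a selected set. No culture without LPS was analysed here at 2 h, and an effect of LPS and an effect of 2 h of time or handling cannot be told apart.

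LPS is a component of the outer membrane of Gram-negative bacteria that is sensed by Toll-like receptor 4 (TLR4) with its co-receptors CD14 and LY96 (MD-2). The receptor signals through adaptors such as MYD88 and TICAM1 to the transcription factor NF-kB and to MAP kinases. Dermal fibroblasts answer this signal with chemokines and cytokines that recruit and activate leukocytes, and the first wave of transcription holds immediate early genes and the inhibitors that later switch the pathway off.

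Matched reads in the 6 libraries ranged from 58797738 to 85914220, and counts in gene windows from 76174804 to 107872418. A gene window spans a gene with its introns, so the level of a gene is compared between libraries, and sums over marker lists serve only as a rough check of the label. Levels are given as CPM, read counts scaled to library size with TMM factors, and depth limits the values below about 0.1 CPM, where a library holds few reads. The library of animal 3 at 2 h stood apart from the others. It had a TMM factor of 0.716 against 0.904 to 1.13 in the other 11 libraries at 0 and 2 h of both ages, 28.9% of its counts between genes against 16.9% to 25.4% in the other 17 libraries, and 1.32% of gene-window counts on mitochondrial genes against 2.14% to 2.63%. Results are therefore given with all 3 animals and without animal 3. Because these are bulk samples, fewer cells of a type and less RNA per cell cannot be told apart.

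The fibroblast label was checked against markers. All 15 fibroblast markers listed passed the filter on low counts, and together they held 88460.0 to 97701 CPM at 0 h. COL3A1, a fibrillar collagen, was at 20410.0, 21809 and 20746 CPM in animals 1, 2 and 3 at 0 h. The 9 keratinocyte markers summed to 1.95 to 2.82 CPM and the 8 endothelial markers to 2.52 to 3.58 CPM at 0 h, and at 2 h they summed to 2.48 to 3.05 and 2.18 to 3.94 CPM. The 10 macrophage markers summed to 8.98 to 13.5 CPM at 0 h and 10.1 to 14.5 CPM at 2 h, most of it from FCGR1A, and 8 of them, with PTPRC and CSF1R among them, did not pass the filter. The 8 smooth muscle markers, several of which cultured fibroblasts also express, summed to 4805 to 6724 CPM at 0 h and 6270 to 15738 CPM at 2 h, with the highest sum in animal 3. Few of these markers could be tested for a change, with 0 keratinocyte, 1 endothelial, 2 macrophage and 7 smooth muscle markers past the filter. None of the tested markers was called by edgeR with all 3 animals, beside 2.02% of all genes. Without animal 3 the smooth muscle marker LMOD1 was called higher, at a log2 fold change of 1.08 (edgeR adjusted p = 0.00562).

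Some genes rose in the 16-month cultures at 2 h from near absence, such as TNF and CD83, and others from a clear level at 0 h, such as CCL2 and IER3. Of 12993 genes tested, 262 (2.02%) were called, meaning an adjusted p under 0.05 and a change of at least 2-fold in the edgeR quasi-likelihood test with the culture as block. Of these, 188 (1.45%) rose and 74 (0.57%) fell. The rises were the larger changes, with 100 genes at least 4-fold higher and 45 at least 16-fold higher, against 19 at least 4-fold lower and 3 at least 16-fold lower. All 262 changed the same way in the 3 animals, and 260 did not overlap between the groups. Over all genes tested, the 3 libraries at 2 h lay above the 3 at 0 h for 10.6% and below for 14.5%. The filter kept genes with at least 1 CPM, before TMM scaling, in 3 of the 6 libraries. Of the 188 genes that rose, 34 reached that level in 0 libraries at 0 h, and of the 74 that fell, 17 reached it in 0 libraries at 2 h, so these passed only through the group where they are high and had to differ. Of the 262 windows, 44 overlap another gene window, and their reads cannot be assigned to 1 gene. The fit took its spread from 12 libraries, with the 5-month cultures included. With the 6 libraries of the 16-month cultures alone, which leave 2 residual degrees of freedom, edgeR called 0 genes, while 744 had an unadjusted p under 0.05.

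**Figure D1:**
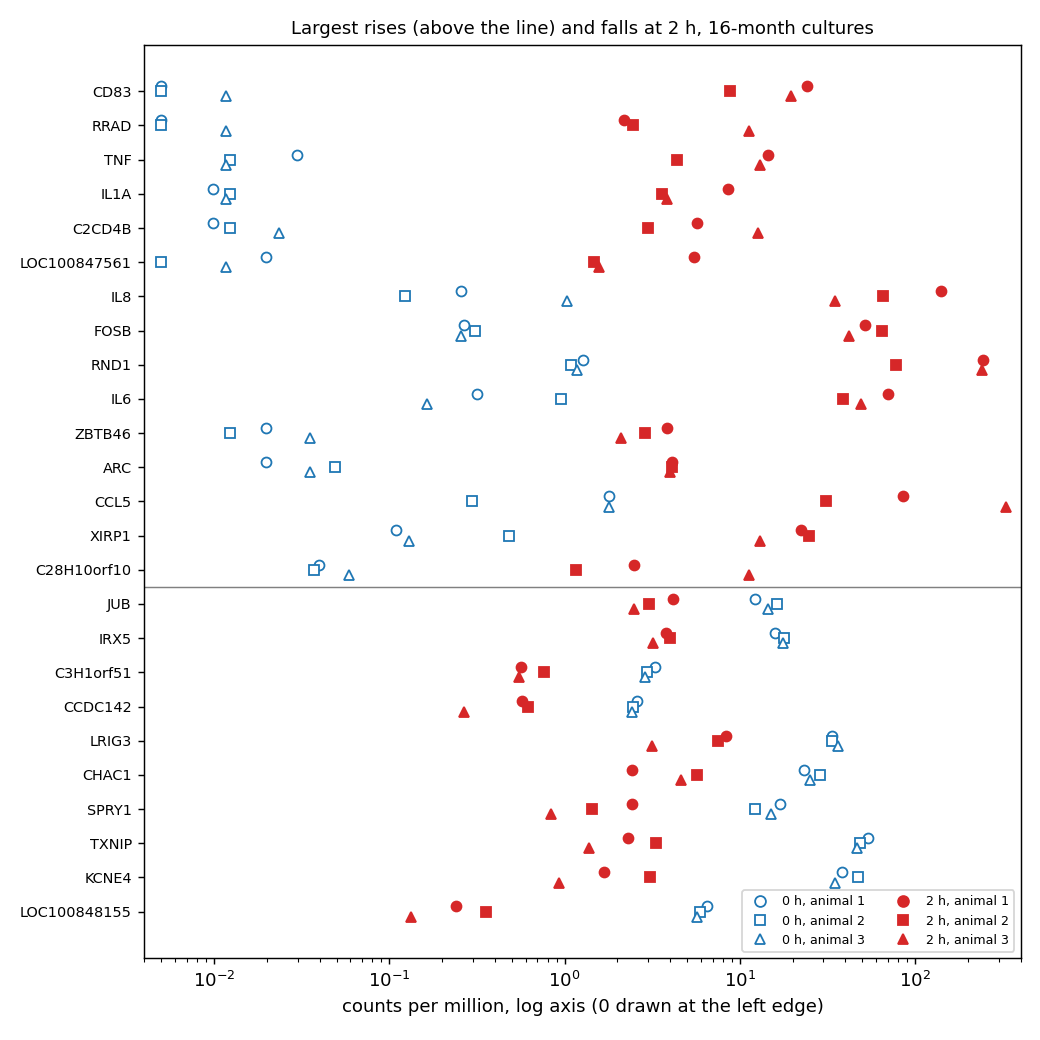
CPM on a log axis for 15 rises and 10 falls, the largest among called genes that averaged over 1 CPM and moved one way in all animals, with 1 point per library (open, 0 h; filled, 2 h; the shape gives the animal). The 3 points at 2 h lie apart from the 3 points at 0 h, which the choice of genes by size and direction favours, and TNF moves from 0.0117 to 0.0296 CPM up to 4.37 to 14.4 CPM.

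Of 19 tested LPS receptors and adaptors 1 rose with all 3 animals, beside 1.45% of all genes, and 3 without animal 3, beside 2.62%. TLR4 was at 4.19, 1.74 and 2.24 CPM at 0 h and 3.72, 1.54 and 1.03 CPM at 2 h in animals 1, 2 and 3. The groups overlapped, and the log2 fold change was -0.48 ± 0.24 (SE; edgeR adjusted p = 0.405). CD14, the co-receptor that hands LPS to TLR4, was at 1.13, 0.973 and 0.855 CPM at 0 h and at 0.685, 0.558 and 1.71 CPM at 2 h. It was lower at 2 h in animals 1 and 2 and higher in animal 3. LY96, which binds LPS within the receptor complex, was at 14.96 to 16.0 CPM at 0 h and at 17.1, 17.6 and 52.8 CPM at 2 h, so the high value was that of animal 3. MYD88, the main adaptor, was at 32.9 to 34.0 CPM at 0 h and 20.1 to 31.1 CPM at 2 h. The called gene was TICAM1, the adaptor of the interferon branch. It rose from 8.89, 9.26 and 9.84 CPM to 42.2, 32.0 and 31.2 CPM, a log2 fold change of 1.90 ± 0.16 (edgeR adjusted p = 0.00724). TLR2, the receptor of bacterial lipoproteins, was at 0.419 to 1.09 CPM at 0 h and 1.57 to 2.74 CPM at 2 h and had an edgeR adjusted p of 0.0657, which was 0.0172 without animal 3. PELI1, a ubiquitin ligase of this pathway, was at 25.4 to 28.5 CPM at 0 h and at 58.0, 54.0 and 24.2 CPM at 2 h, and was the third gene called without animal 3. The median log2 fold change of the list was -0.18, beside -0.04 over all genes tested.

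Of the NF-kB subunits, 3 of 4 tested rose, beside 1.45% of all genes. RELB, a subunit of the slower non-canonical arm, went from 8.52, 6.99 and 8.28 CPM to 50.5, 35.4 and 78.2 CPM (log2 fold change 2.71 ± 0.26; edgeR adjusted p = 0.00981). NFKB1, the precursor of p50, went from 14.2 to 15.2 CPM up to 52.8 to 76.4 CPM, and NFKB2, the precursor of p52, from 39.1 to 43.9 CPM up to 86.1 to 210.4 CPM. RELA, the subunit held ready in resting cells, was at 61.4 to 70.9 CPM at 0 h and 71.7 to 88.3 CPM at 2 h, a log2 fold change of 0.23 ± 0.10 (edgeR adjusted p = 0.357). REL did not pass the filter on low counts.

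Of 17 tested inhibitors and feedback genes of NF-kB, 8 rose and 0 fell, beside 1.45% of all genes that rose, and the list had a median log2 fold change of 1.88. NFKBIA, which encodes IkB-alpha and retains NF-kB in the cytoplasm, was at 6.55, 6.17 and 6.2 CPM at 0 h and at 462, 267 and 342 CPM at 2 h. That is a log2 fold change of 5.79 ± 0.21 (edgeR adjusted p = 0.00147). NFKBIZ, a nuclear IkB protein, went from 4.31, 5.41 and 5.03 CPM to 423, 177 and 82.3 CPM, and ZC3H12A, a nuclease that degrades cytokine mRNA, from 4.38, 4.3 and 4.41 CPM to 105, 71.6 and 84.0 CPM. Animal 3 was the lowest of the 3 for NFKBIZ and lay between the others for ZC3H12A. BIRC3, TNIP1, NFKBID, NFKBIE and BCL3 also rose, by log2 fold changes of 1.88 to 3.22. TNFAIP3 (A20), the ubiquitin-editing brake on this pathway, was at 0.276, 0.406 and 0.972 CPM at 0 h and at 118, 56.8 and 12.1 CPM at 2 h. Its groups did not overlap, but the rise was smallest in animal 3, and the log2 fold change of 6.55 ± 1.21 had an edgeR adjusted p of 0.0599. Without animal 3 it was 8.02 ± 0.46 (edgeR adjusted p = 0.000275). The kinase genes IKBKB, CHUK, IKBKG and IKBKE were not called.

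Chemokines had a median log2 fold change of 6.30 over 9 tested genes. With all 3 animals 4 were called higher, beside 1.45% of all genes. Of the 9, IL8, CCL5, CCL20 and CX3CL1 were at 1 CPM or above in fewer than 3 libraries at 0 h, before TMM scaling, and passed the filter only with the help of their 2 h libraries, and the median of the other 5 was 1.55. Such a filter favours genes that are higher at 2 h, and a gene below 1 CPM in all 0 h libraries, such as CCL20 and CX3CL1, had to differ. Here and in the lists that follow the count and the median therefore describe a list and test nothing. IL8, the attractant of neutrophils, was at 0.256, 0.123 and 1.03 CPM at 0 h and at 141, 65.9 and 35.1 CPM at 2 h. Animal 3 was the highest of the 3 at 0 h and the lowest at 2 h. The log2 fold change was 7.68 ± 1.03 (edgeR adjusted p = 0.0249), and 9.08 ± 0.13 without animal 3 (edgeR adjusted p = 3.29e-06). CCL2, which attracts monocytes, went from 16.2, 11.1 and 17.7 CPM to 859.5, 300.1 and 1010.4 CPM, and CCL5, which attracts T cells and monocytes, from 1.78, 0.296 and 1.79 CPM to 84.97, 31.2 and 332 CPM. For both, animal 2 was the lowest at each time. CXCL2 rose from 6.49, 2.99 and 5.99 CPM to 558, 219.5 and 466 CPM (log2 fold change 6.30 ± 0.27; edgeR adjusted p = 0.00176). The window named CXCL2, on chromosome 6 from 90695494 to 90824841 of UMD 3.1, overlaps another gene window, and its reads cannot be assigned to CXCL2 alone. The symbols CXCL1, CXCL3, CXCL5 and CCL7 did not match a window name.

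CCL20, the attractant of dendritic cells and of T helper 17 cells, and CX3CL1 (fractalkine) had 0 reads in all 3 libraries at 0 h. CCL20 was at 9.05, 2.71 and 4.94 CPM at 2 h, at least 489-fold higher, when the floor is set at 3 reads over the 0 h group. CX3CL1 was at 11.5, 5.35 and 10.9 CPM, at least 787-fold higher by the same floor. Neither was called with all 3 animals, with edgeR adjusted p of 0.0848 and 0.0706, and both were called without animal 3, although the values of animal 3 lay between those of the other animals. SAA3, an acute phase protein, also had 0 reads at 0 h and reached 0.872, 0.407 and 3.64 CPM at 2 h, at least 116-fold higher, but did not pass the filter on low counts and was not tested. CXCL6 was at 35.8 to 62.1 CPM at 0 h and at 264, 143 and 80.1 CPM at 2 h, with an edgeR adjusted p of 0.134, which was 0.000369 without animal 3.

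**Figure D2:**
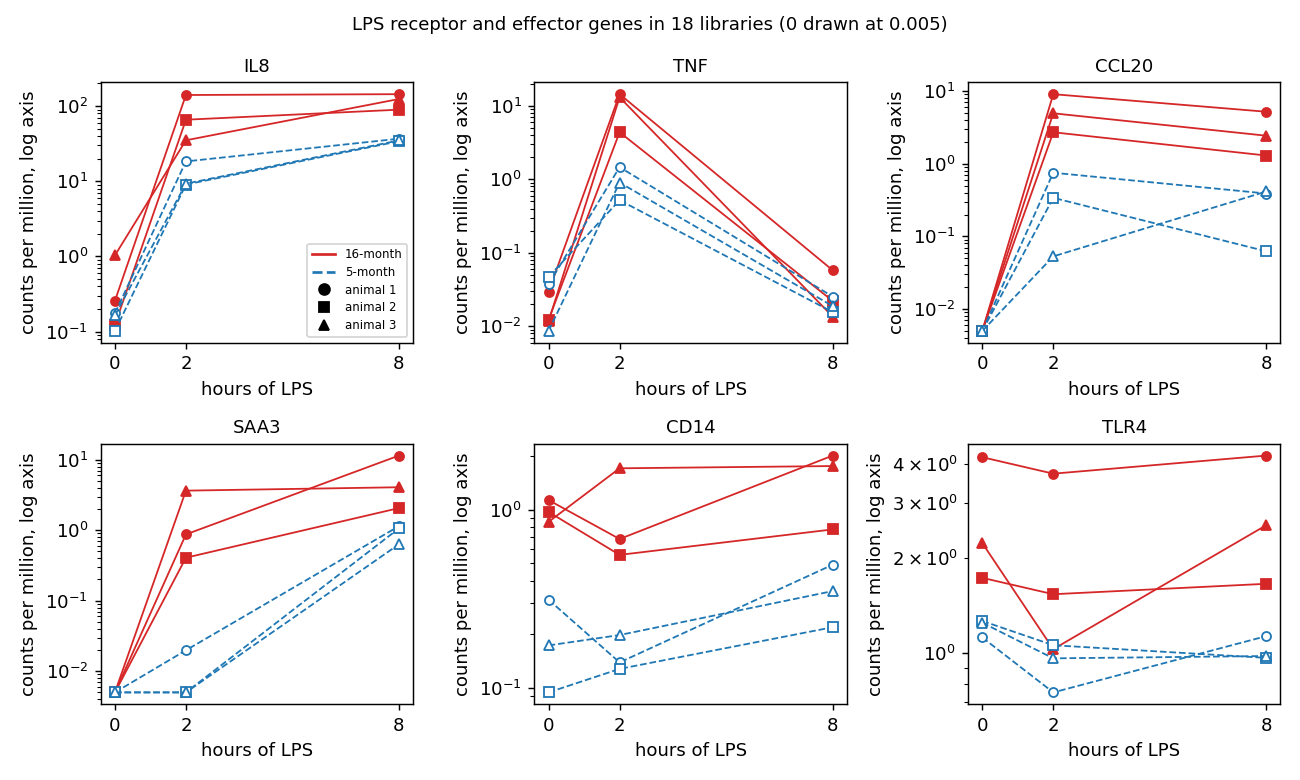
CPM on a log axis at 0, 2 and 8 h of LPS for IL8, TNF, CCL20, SAA3, CD14 and TLR4, with 1 line per culture (red solid, 16-month; blue dashed, 5-month; the shape gives the animal; 0 drawn at 0.005). In the 16-month cultures TNF is at 4.37 to 14.4 CPM at 2 h and back at a mean of 0.0312 CPM at 8 h, while IL8 stays at a mean of 119 CPM.

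Among cytokines and growth factors, 5 of 16 tested genes rose and 0 fell, beside 1.45% of all genes that rose. All 5 passed the filter only with the help of their 2 h libraries, and TNF, IL1A and IL11, below 1 CPM in all 0 h libraries, had to differ. TNF, the early inflammatory cytokine, went from 0.0296, 0.0123 and 0.0117 CPM to 14.4, 4.37 and 13.1 CPM (log2 fold change 9.08 ± 0.61; edgeR adjusted p = 0.00389). Its window overlaps that of LOC100847561, which moved the same way. IL1A, which signals through the interleukin 1 receptor, had 3 reads over the 3 libraries at 0 h and was at 8.56, 3.6 and 3.84 CPM at 2 h, a ratio of 485 with a 95% counting interval of 166 to 2354. IL6, a driver of the acute phase response, went from 0.315, 0.948 and 0.164 CPM to 70.2, 38.6 and 49.1 CPM (log2 fold change 7.05 ± 1.08; edgeR adjusted p = 0.0367). Animal 2 was the highest at 0 h and the lowest at 2 h. IL6 is named for 2 windows, and these values are from the one with more reads. LIF and IL11, which signal through the same shared receptor chain as IL6, rose as well. LIF went from 0.68 to 1.28 CPM up to 89.4, 85.8 and 28.7 CPM, and IL11 from 0.123 to 0.234 CPM up to 2.01 to 3.64 CPM. HBEGF, a ligand of the epidermal growth factor receptor, was at 6.76, 9.3 and 1.18 CPM at 2 h against 0.542 to 0.997 CPM at 0 h, with an edgeR adjusted p of 0.0699, which was 0.000325 without animal 3. CSF2 (GM-CSF) did not pass the filter, but went from 0 reads at 0 h to a level at least 99.4-fold higher.

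Of the rises plotted that are in no list, CD83, RRAD, C2CD4B, LOC100847561, ZBTB46, XIRP1 and C28H10orf10 were below 1 CPM in all 0 h libraries and had to differ. CD83 and RRAD had 1 read over the 3 libraries at 0 h. CD83, a surface protein of maturing dendritic cells, was at 24.1, 8.84 and 19.5 CPM at 2 h, a ratio of 4475 with a 95% counting interval of 803 to 176800. Its window lies on chromosome 23 from 42335196 to 42354922 of UMD 3.1. RRAD, a small GTPase of the RGK family, was at 2.18, 2.44 and 11.2 CPM at 2 h, a ratio of 1154 with a 95% counting interval of 207 to 45640. C2CD4B went from 0.00986, 0.0123 and 0.0234 CPM to 5.68, 2.97 and 12.8 CPM, with the smallest SE of the 15 rises plotted (log2 fold change 8.72 ± 0.30; edgeR adjusted p = 0.00147). RND1, a small GTPase, went from 1.08 to 1.27 CPM up to 244, 78.2 and 242 CPM. ZBTB46, a zinc finger transcription factor, XIRP1, an actin-binding protein, and C28H10orf10, whose window overlaps that of RASSF4, made up the remainder of these rises, with log2 fold changes of 6.94, 6.60 and 6.36.

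Immediate early genes, which are transcribed from factors already present in the cell, held 15 called genes among 32 tested, all of them higher, beside 1.45% of all genes. Of the 15, FOSB, ARC and EGR3 were below 1 CPM in all 0 h libraries, so they passed the filter only through 2 h and had to differ. FOSB, a partner in the AP-1 transcription factor, went from 0.266, 0.308 and 0.258 CPM to 51.6, 64.9 and 41.8 CPM (log2 fold change 7.55 ± 0.40; edgeR adjusted p = 0.0027). ARC, an activity-regulated gene best known from neurons, went from 0.0197, 0.0493 and 0.0352 CPM to 4.09, 4.09 and 3.97 CPM, close to the same level in all 3 animals at 2 h. NR4A1 (NUR77), an orphan nuclear receptor, went from 4.69, 5.81 and 4.72 CPM to 289.6, 193 and 263 CPM. EGR3 went from 0.0937 to 0.138 CPM up to 14.8, 12.3 and 1.56 CPM, and animal 3 was far below the others at 2 h. IER3 reached 817, 528 and 2061 CPM from 35.2 to 42.6 CPM, in a window that overlaps a second one. JUNB, FOSL1, MAFF, CSRNP1, BTG2, IER2, KLF10, ATF3, BHLHE40 and IER5 completed the called genes, with log2 fold changes of 1.31 to 3.45.

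The best-known members of this class were not called at 2 h. FOS was at 8.6, 17.3 and 10.3 CPM at 0 h and at 13.5, 17.6 and 7.11 CPM at 2 h, with overlapping groups and a log2 fold change of 0.05 ± 0.26 (edgeR adjusted p = 0.897) that turned negative under 2 other scalings. EGR1 was at 5.73 to 6.88 CPM at 0 h and at 21.0, 12.4 and 7.26 CPM at 2 h (edgeR adjusted p = 0.405, and 0.167 without animal 3). JUN was at 26.6 to 31.2 CPM at 0 h and 44.8 to 63.7 CPM at 2 h, and JUND at 33.2 to 40.9 and 80.3 to 226 CPM. Both JUN and JUND were called without animal 3 and not with it. NFIL3 had an edgeR adjusted p of 0.0495 for a log2 fold change of -0.86 ± 0.15, under the 2-fold minimum.

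Feedback on MAP kinases and cytokine receptors moved in both directions, with 4 genes higher and 2 lower of 21 tested, beside 1.45% and 0.57% of all genes. DUSP5, below 1 CPM in all 0 h libraries, had to differ, and SPRY1 fell below 1 CPM in 1 library at 2 h. DUSP5, a phosphatase that acts on the MAP kinase ERK, went from 0.296, 0.85 and 0.305 CPM to 12.1, 13.0 and 10.9 CPM (log2 fold change 4.79 ± 0.53; edgeR adjusted p = 0.0147). GADD45B went from 27.4, 42.0 and 29.1 CPM to 130.1, 138 and 261 CPM, while its paralog GADD45A fell from 82.6, 120.4 and 87.9 CPM to 36.5, 51.1 and 42.7 CPM. CISH and TRIB1 rose by log2 fold changes of 1.54 and 1.35. SPRY1, an inhibitor of growth factor signalling to ERK, fell from 16.9, 12.3 and 15.1 CPM to 2.43, 1.44 and 0.831 CPM (log2 fold change -3.33 ± 0.34; edgeR adjusted p = 0.0115). DUSP6, another ERK phosphatase, was at 3.93 to 5.43 CPM at 0 h and at 23.8, 29.9 and 4.82 CPM at 2 h, and was called without animal 3 and not with it.

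Genes of adhesion, acute phase and matrix held 7 called genes of 17 tested, all higher, beside 1.45% of all genes. Of the 7, PTX3, HAS1 and HAS2 were below 1 CPM in all 0 h libraries and had to differ, and CFB passed the filter with the help of its 2 h libraries. PTGS2 (COX-2), the inducible enzyme of prostaglandin synthesis, went from 5.03, 6.29 and 5.86 CPM to 438, 286 and 109 CPM (log2 fold change 5.39 ± 0.53; edgeR adjusted p = 0.0106). PTX3, a soluble pattern recognition protein, reached 26.3, 5.35 and 11.6 CPM from 0.123 to 0.621 CPM, and CFB, complement factor B, reached 36.5, 10.3 and 49.9 CPM from 0.468 to 1.79 CPM. In both genes animal 2 was the lowest at each time. F3, the tissue factor that starts coagulation, went from 5.01 to 5.67 CPM up to 260.3, 165 and 96.9 CPM, and PLAUR, the urokinase receptor, from 18.5, 36.0 and 20.5 CPM to 133, 181 and 177 CPM. HAS2 and HAS1, which make hyaluronan, rose by log2 fold changes of 4.39 and 3.93. The windows of PTGS2, PTX3 and PLAUR each overlap another gene window, as those of NFKB1, IL11 and BHLHE40 do. ICAM1 is named for 2 windows. The window with more reads, counted in the list, was not called, and the other was called higher with a log2 fold change of 1.47 ± 0.23 (edgeR adjusted p = 0.0407).

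Of 14 tested interferon response genes, IRF1 was called higher with all 3 animals, beside 1.45% of all genes, and the other 13 were not called. Without animal 3 OAS1 and CMPK2 were called higher as well, 3 genes in all, beside 2.62% of all genes. IRF1, a transcription factor induced directly by NF-kB, went from 9.43, 8.87 and 8.81 CPM to 271, 153 and 145 CPM (log2 fold change 4.33 ± 0.21; edgeR adjusted p = 0.00192). MX1, an antiviral GTPase, was at 6.47, 1.99 and 6.0 CPM at 0 h and 7.11, 2.43 and 13.8 CPM at 2 h, and its mean was 56.5 ± 43.0 CPM (SD, n = 3) at 8 h. OAS1, which activates the antiviral nuclease RNase L, was at 1.6, 0.431 and 1.3 CPM at 0 h, 2.78, 1.65 and 2.04 CPM at 2 h and a mean of 76.4 ± 41.0 CPM (SD, n = 3) at 8 h. The IRF1 window overlaps that of LOC100848038, and the reads cannot be assigned to IRF1 alone. The median log2 fold change of the list at 2 h was -0.38, and -0.14 without animal 3.

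Genes that respond to TGF-beta, BMP and YAP signalling held 8 called genes of 21 tested, all higher, beside 1.45% of all genes. ID1, an inhibitor of basic helix-loop-helix factors and a target of BMP signalling, went from 10.1, 4.77 and 12.2 CPM to 119.8, 115 and 442 CPM (log2 fold change 4.45 ± 0.35; edgeR adjusted p = 0.00615). SMAD7 and SMAD6, which inhibit the receptors of this family, rose by log2 fold changes of 3.02 and 1.73. SNAI1, a repressor active in epithelial-to-mesenchymal transition, went from 4.0, 4.77 and 4.42 CPM to 23.4, 28.5 and 26.0 CPM. CTGF, a matricellular protein, went from 1204, 1996 and 1366 CPM to 3028, 3390.5 and 3380.3 CPM. ID2, TGFB1 and SNAI2 rose by log2 fold changes of 1.11 to 1.23. ANKRD1, a target of YAP, had a log2 fold change of 0.94 ± 0.16 (edgeR adjusted p = 0.0478), under the 2-fold minimum. SKIL was at 95.1 and 80.0 CPM in animals 1 and 2 at 2 h and at 8.31 CPM in animal 3, against 9.16 to 14.6 CPM at 0 h, and was called without animal 3 and not with it.

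**Figure D3:**
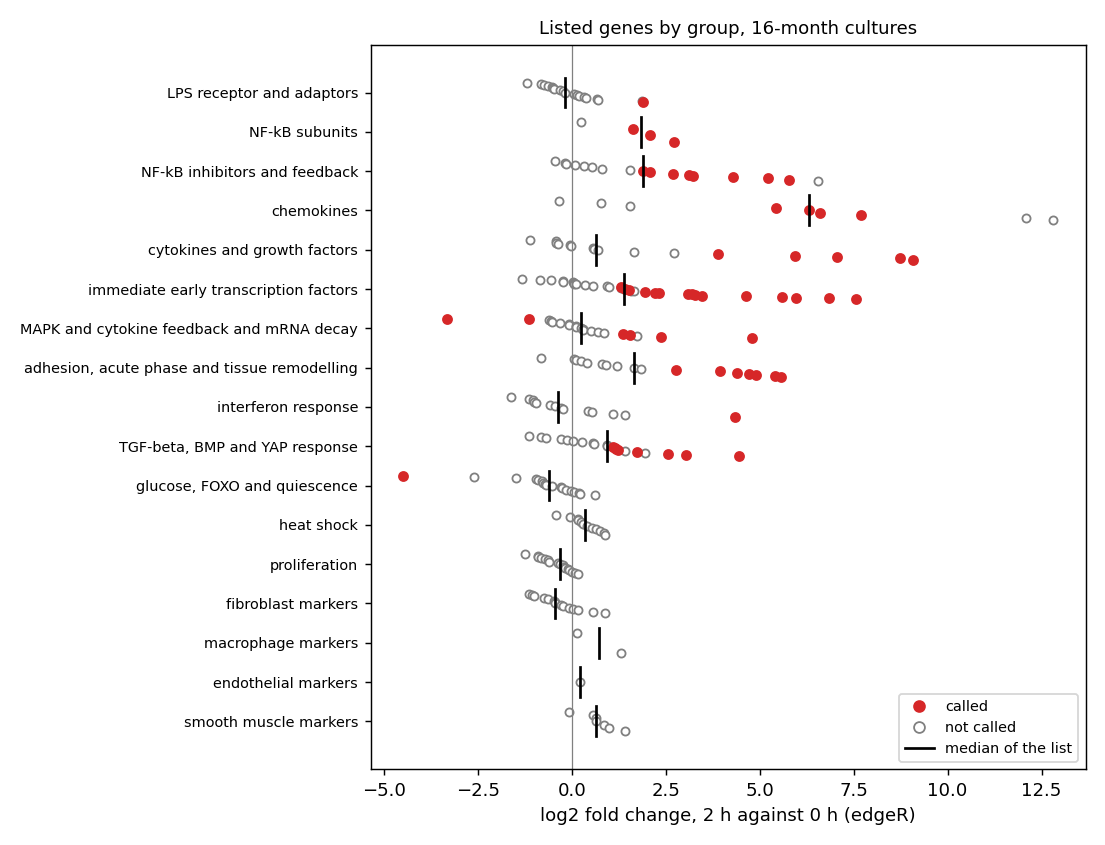
Log2 fold change at 2 h against 0 h for each tested gene of 17 lists (filled red, called; open, not called; vertical bar, list median). Chemokines have a median of 6.30, with 4 of their 9 genes past the filter only with the help of 2 h libraries, and the NF-kB inhibitors one of 1.88. The fibroblast markers, heat shock and proliferation lists hold no called gene, beside 2.02% of all genes, a share that gives few in lists of this size.

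Among the called genes, the falls were fewer and smaller than the rises. TXNIP, the thioredoxin-interacting protein that limits glucose uptake, went from 54.0, 48.3 and 46.6 CPM to 2.3, 3.31 and 1.38 CPM (log2 fold change -4.49 ± 0.36; edgeR adjusted p = 0.00651). LOC100848155 fell as far, but its window overlaps that of TXNIP and the reads cannot be told apart. KCNE4, a subunit of voltage-gated potassium channels, went from 38.4, 47.4 and 35.0 CPM to 1.68, 3.06 and 0.931 CPM. TXNIP and KCNE4 were at means of 77.0 ± 5.32 and 50.9 ± 3.54 CPM (SD, n = 3) at 8 h. CHAC1, which degrades glutathione, went from 23.2, 28.9 and 25.3 CPM to 2.42, 5.72 and 4.6 CPM. LRIG3, a transmembrane protein with leucine-rich repeats, IRX5, a homeobox factor, and JUB, a LIM protein of cell junctions, fell by log2 fold changes of -2.55, -2.23 and -2.18. CCDC142 and C3H1orf51 fell by -2.41 and -2.29, and with LOC100848155 they were below 1 CPM in all 2 h libraries and had to differ. Of 18 tested genes of glucose, FOXO and quiescence, TXNIP was the one called with all 3 animals, beside 0.57% of all genes that fell. Without animal 3 there were 5 called lower, with ARRDC4, PIK3IP1, CCNG2 and TSC22D3 added, beside 1.34% of all genes. ARRDC4, a paralog of TXNIP, was at 7.4 to 8.23 CPM at 0 h and at 2.77, 2.81 and 0.0831 CPM at 2 h, with an edgeR adjusted p of 0.281, which was 0.00033 without animal 3. CDKN1B had a log2 fold change of -0.90 ± 0.13 (edgeR adjusted p = 0.0336), under the 2-fold minimum.

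Zinc finger genes stood out among the falls when the called genes were read through, and this family was chosen after its values were seen. Of 289 tested genes with symbols that start with ZNF, ZSCAN, ZKSCAN or ZBTB, which name mostly transcription factors with C2H2 fingers, 23 (7.96%) fell and 2 rose, beside 0.57% of all genes that fell. Of the 23, 13 were at 1 CPM or above, before TMM scaling, in fewer than 3 libraries at 2 h, so they passed the filter only with the help of their 0 h libraries, which favours genes that fell. Among these, 6 were below 1 CPM in all 2 h libraries and had to differ, with ZNF461, ZNF19 and ZNF688 included. The 2 that rose were ZBTB46 and ZNF469. The falls ran from -1.01 to -2.53 on the log2 scale, in genes whose mean level at 0 h was 0.986 to 22.5 CPM. ZNF461 went from 1.21, 1.11 and 1.12 CPM to 0.166, 0.266 and 0.166 CPM (log2 fold change -2.53 ± 0.29; edgeR adjusted p = 0.0156), and ZNF19 from 1.57, 1.17 and 0.996 CPM to 0.28, 0.301 and 0.116 CPM. ZNF688 fell by a log2 fold change of -2.31. The median of the 289 genes was -0.68, beside -0.04 over all genes, and 82.0% of them were below 0, beside 52.8% of all genes. By animal, the median was -0.46, -0.37 and -1.06 in animals 1, 2 and 3, and it was -0.33 to -0.35 in the 5-month cultures. Without animal 3 the median was -0.38, with 49 called lower and 3 higher, beside 1.34% and 2.62% of all genes in that fit. The median stayed negative under the 3 other scalings, at -0.64 to -0.92, where 20 to 27 members were called lower. The median of all genes moved with it, from -0.0025 to -0.29.

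Proliferation, heat shock and fibroblast genes gave 0 calls, by edgeR, among 17, 12 and 15 tested, beside 2.02% of all genes. At that share few calls would be met in lists of this size. HSPA1A and DNAJB1, a heat shock chaperone and its partner, had log2 fold changes of 0.88 ± 0.13 and 0.87 ± 0.12 (edgeR adjusted p = 0.0344 and 0.0253), under the 2-fold minimum. MKI67, a proliferation marker, was at 117, 78.6 and 118 CPM at 0 h and 88.8, 62.1 and 30.0 CPM at 2 h. Both main fibrillar collagens had libraries far from the others. COL3A1 was at 21024, 21358 and 7902 CPM at 2 h, so the low value was that of animal 3. COL1A1 was at 18394, 24482 and 20441 CPM at 0 h and at 19981, 6907 and 6296 CPM at 2 h, low in animals 2 and 3, with a log2 fold change of -1.15 ± 0.78 (edgeR adjusted p = 0.406).

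Without animal 3, the same test called more genes. The fit over the remaining 10 libraries tested 13106 genes and called 520 (3.97%), of which 344 (2.62%) rose and 176 (1.34%) fell. The 2 fits shared 247 genes, which is 94.3% of the calls with all animals and 47.5% of the calls without animal 3. The spread left in the fit was smaller, with a common coefficient of variation of 0.0836 against 0.2997 with all animals. Of the 520 genes, 437 moved in the same direction in animal 3, 345 of them by at least 2-fold, and 83 moved in the opposite direction. The counts of called chemokines went from 4 to 7, of immediate early genes from 15 to 20, of adhesion and matrix genes from 7 to 10, of interferon response genes from 1 to 3, and of TGF-beta, BMP and YAP genes from 8 to 10. Among genes called in this fit alone with a mean above 1 CPM, EGR2, the largest after CX3CL1, CCL20 and TNFAIP3, reached 4.41, 3.43 and 0.565 CPM from 0.082 to 0.172 CPM, and LOC100337435 reached 191, 75.2 and 33.4 CPM from 7.01 to 12.1 CPM. EGR2, CX3CL1, CCL20 and TNFAIP3 were below 1 CPM at 0 h in animals 1 and 2. They passed the filter of this fit only through 2 h and had to differ. Of the falls in this fit, KCNJ2, a potassium channel, was at 5.76 to 6.25 CPM at 0 h and at 0.291, 0.788 and 0.0499 CPM at 2 h. C19H17orf53 and ZNF789 were lower at 2 h in all 3 animals, and less so in animal 3. KCNJ2, C19H17orf53 and ZNF789 were below 1 CPM at 2 h in animals 1 and 2, passed only through 0 h and had to differ.

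**Figure D4:**
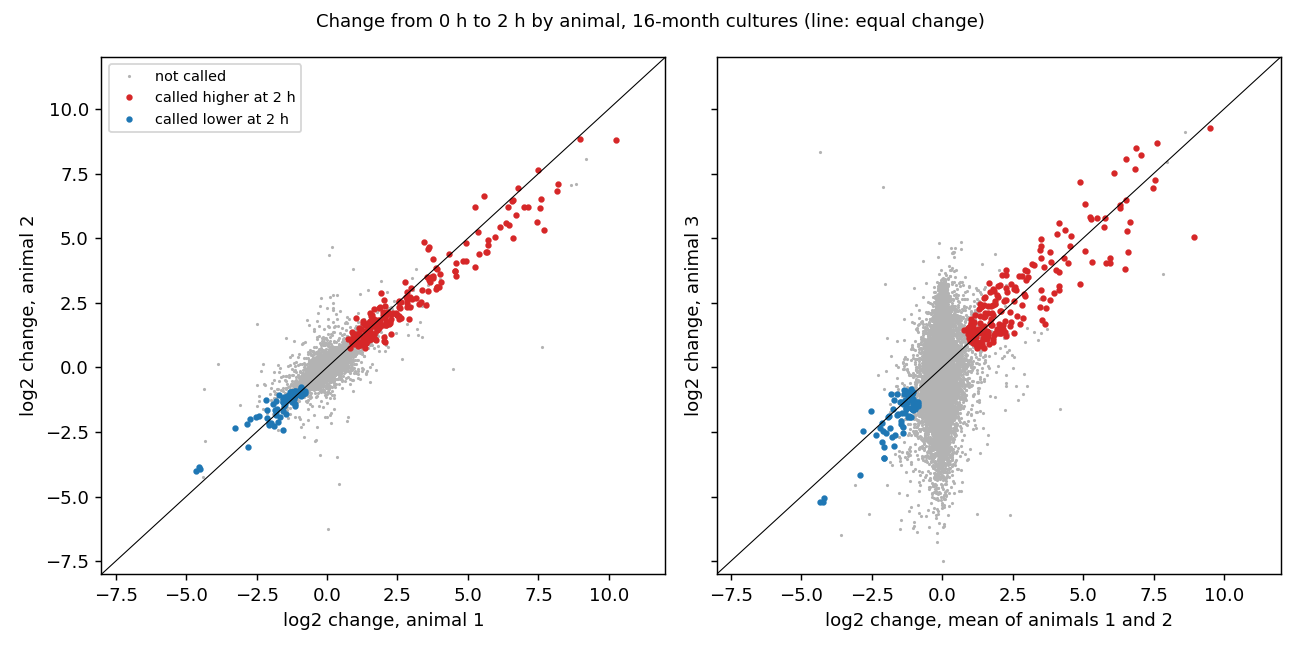
Log2 change from 0 h to 2 h of each tested gene in animal 2 against animal 1 (left), and in animal 3 against the mean of animals 1 and 2 (right), with called genes in red (higher) and blue (lower) and a line of equal change. Genes that were not called form a narrow cloud on the left and a tall one on the right, where the SD of the change in animal 3 is 1.55.

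The departure of animal 3 reached across the transcriptome. Over the 10298 genes with a mean of at least 5 CPM, the log2 change from 0 to 2 h had an SD of 0.54, 0.49 and 1.55 in animals 1, 2 and 3, and of 0.37 to 0.47 in the 5-month cultures. The changes correlated across genes at r = 0.896 between animals 1 and 2, but at 0.233 and 0.291 between animal 3 and animals 1 and 2, where genes share a library and are not independent. Among the called genes, which the test favours where the animals agree, the median change in animals 1, 2 and 3 was 2.09, 2.03 and 2.34 for the higher. It was -1.44, -1.28 and -1.60 for the lower. These medians cannot show how far animal 3 departed in single called genes. In 1790 genes (17.4%) animal 3 departed from the mean of the other animals by more than 4-fold, whereas animals 1 and 2 differed by that much in 17 genes.

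The departure of animal 3 moved with the length of the gene window. With the 10298 genes ordered by window length and divided into 5 equal bins, the bin of shortest windows had a median of 2.91 kb, and there animal 3 lay above the mean of the others by a median of 1.20 on the log2 scale, and in the bin of longest windows, with a median of 115 kb, it lay below by a median of -0.96. The rank correlation of the departure with window length was -0.485 over the 10298 genes, and that of the difference between animals 1 and 2 was 0.204, both as descriptions across genes of the same libraries. S100A4, a short gene, was at 1507, 1471 and 9869 CPM at 2 h against 1439 to 1491 CPM at 0 h, and VIM was at 9979, 7389 and 16784 CPM against 7805 to 10743 CPM. The part of window length in the results was not tested.

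**Figure D5:**
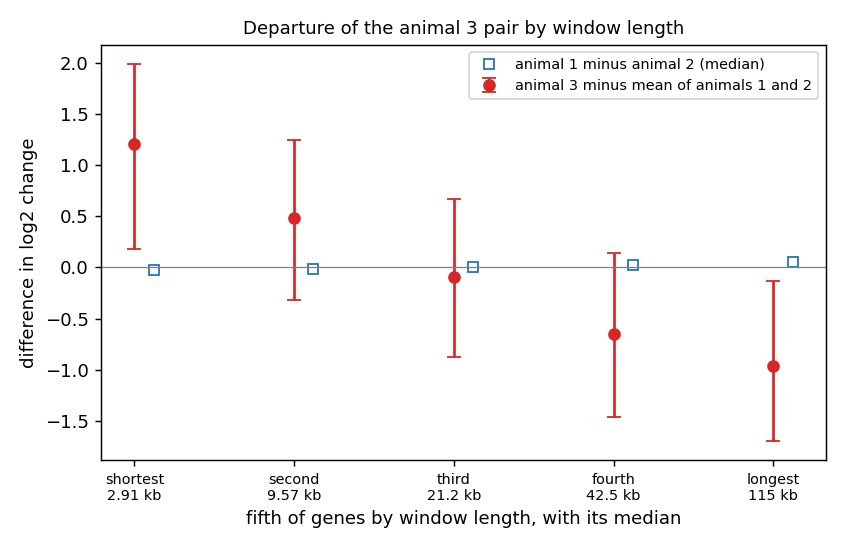
Difference in log2 change between animal 3 and the mean of animals 1 and 2, in 5 bins of the 10298 genes ordered by window length (red points, medians; bars, lower to upper quartile), with the median difference between animals 1 and 2 (open squares). The medians of animal 3 run from 1.20 in the bin of shortest windows to -0.96 in the longest, and those of animals 1 and 2 from -0.02 to 0.05.

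Genes for which animal 3 departed most were named among those called without it and with a mean above 5 CPM. RASA2, an inhibitor of Ras, was at 15.7 to 21.1 CPM at 0 h and at 63.1, 49.95 and 3.27 CPM at 2 h. OLR1, a receptor of oxidized lipoprotein, was at 5.04 to 10.5 CPM at 0 h and at 59.7, 55.0 and 2.46 CPM at 2 h, and NR4A3 at 3.31 to 5.62 CPM and at 27.2, 29.5 and 1.88 CPM. These 3 were higher at 2 h in animals 1 and 2 and lower in animal 3. CLEC16A went the other way, from 17.7, 31.2 and 11.6 CPM to 12.3, 11.0 and 97.5 CPM, and C16H1orf129 was at 0.332 and 0.354 CPM in animals 1 and 2 at 2 h and at 54.2 CPM in animal 3. The short windows LOC785629, which overlaps TGFBR1, and LOC783688, which overlaps IL1RAPL2, had 0 reads in 1 of the libraries of animal 3. FAM46A, ARRDC3 and AHR, a receptor of aromatic compounds, were lower at 2 h in all 3 animals and lowest in animal 3, where they were at 0.183, 0.299 and 0.15 CPM at 2 h.

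Which genes were called depended on the cultures kept in the fit. Leaving out the culture of animal 1 or animal 2 in place of animal 3 gave 34 and 46 called genes, and leaving out the 5-month culture of animal 1, 2 or 3 gave 103, 115 and 73. A total of 27 genes were called whichever of the 6 cultures was left out. They included the NF-kB feedback genes NFKBIA and ZC3H12A, the chemokines CCL2 and CXCL2, the immediate early genes ARC, BTG2, FOSB, FOSL1, MAFF and NR4A1, and CD83, CFB, IRF1, RRAD and SNAI1. CXCR4, a chemokine receptor among them, went from 0.207, 0.135 and 0.141 CPM to 3.08, 1.68 and 2.38 CPM. Of the 27, ARC, C2CD4B, CD83, CXCR4, FOSB, RRAD, XIRP1 and ZBTB46 were below 1 CPM in all 0 h libraries. They passed the filter only through 2 h and had to differ. No falling gene was among the 27.

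The response of the 16-month cultures was then compared with that of the 5-month cultures of the same animals in the same fit. Of 12993 genes, edgeR called 0 (0%) for a difference in the 2 h response, with a smallest adjusted p of 0.657 and 178 genes at an unadjusted p under 0.05, while DESeq2 called 14, limma-voom 0 (38 with sample quality weights) and the edgeR likelihood-ratio test 10. Without the 16-month culture of animal 3, 3 of 13106 genes (0.0229%) were called. IL8 was at a mean of 80.5 ± 54.2 CPM in 16-month and 12.2 ± 5.31 CPM in 5-month cultures at 2 h (SD, n = 3), from 0.47 ± 0.49 and 0.147 ± 0.0394 CPM at 0 h. The difference between the log2 responses was 1.37 ± 1.25 (edgeR adjusted p = 0.657), and 2.77 without animal 3 (edgeR adjusted p = 0.0709). TNF was at 10.6 ± 5.45 and 0.963 ± 0.475 CPM at 2 h, with a difference in log2 response of 4.30 ± 0.92 (edgeR adjusted p = 0.657). CCL20 was at 5.57 ± 3.22 CPM in 16-month and 0.382 ± 0.351 CPM in 5-month cultures at 2 h (SD, n = 3), from 0 reads in all 6 libraries at 0 h. FOSB was at a mean of 75.2 ± 17.2 CPM in 5-month cultures at 2 h (SD, n = 3), above the 41.8 to 64.9 CPM of the 16-month cultures, and its difference in log2 response was -0.29 ± 0.47 (edgeR adjusted p = 0.723). These intervals are wide, and equal responses at the 2 ages were not shown.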

How the data were processed

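The study extracted RNA from each culture, made single-end libraries and aligned filtered reads to the bovine assembly UMD 3.1 with NextGENe 2.3.4. The deposited values are raw read counts in 59846 windows per library, of which the authors' annotation names 27550 by gene. A read could count in more than 1 window, 3905 gene windows (14.2%) overlap another, and counting by strand was not given in the sources used here. The comparisons of the report used named windows only. Genes with at least 1 CPM, before TMM scaling, in 3 of the 6 libraries were kept and tested with edgeR 4.0.16 (R 4.3.3; quasi-likelihood F test, TMM factors, Benjamini-Hochberg adjustment) on the 12 libraries at 0 and 2 h of both ages, with the culture as block and a separate 2 h effect per age, which leaves 4 residual degrees of freedom. The SE given with an edgeR log2 fold change is its absolute value divided by the square root of the F value, and is approximate. Alternatives used limma 3.58.1 and DESeq2 1.42.0. The labels give the same animal at each time, which sets the pairing. The deviations of paired 16-month libraries from their group means correlated at 0.0953, 0.381 and 0.168 in animals 1, 2 and 3. Those of paired 5-month libraries correlated at 0.546, 0.753 and 0.613. Each culture was 1 per animal and age, so the spread between animals includes that of culture.

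Named genes were the 15 largest rises and 10 largest falls that had one sign in all animals and averaged over 1 CPM, members of 18 lists holding 333 genes (14 without a matching window), genes the study measured by RT-PCR, the 5 largest rises and 5 largest falls called only without animal 3, and the 10 genes where animal 3 departed most. Others in the text were chosen after their values were seen. Members and lists were chosen with earlier results of these data known. Counting intervals are exact, at 95%, and with the floor of 3 reads cover counting error only. No duplicated library was found, since replicates differed by chi-square values of at least 25.8 per degree of freedom. Sequences were not used, and some genes are not reported here.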

Additional observations from a re-analysis of the deposited data

Results flagged for a closer look

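Windows that the files list as intergenic, which no comparison above used, held changes of the same kind. Of 6918 intergenic windows tested with edgeR in the same way, 219 (3.17%) were called, 162 higher and 57 lower at 2 h. Some of these windows on chromosome Y hold nearly the same counts, so the 219 are not all separate changes. The called gene window LOC100851780 also lies on chromosome Y. The animals were heifers, and where the reads of windows on chromosome Y came from was not tested. One window listed as intergenic lay on chromosome 6 of UMD 3.1 from 90709881 to 90842884, between LOC100847175 and MTHFD2L, and went from 10.9, 4.52 and 10.9 CPM to 1132, 424 and 941 CPM (log2 fold change 6.57 ± 0.34; edgeR adjusted p = 0.00104). Most of it lies within the CXCL2 gene window, which runs from 90695494 to 90824841, and the rises of both cannot be told apart. Other windows with large rises lay after CCL5 and after CCL20, with log2 fold changes of 7.70 and 7.29. Both were below 1 CPM in all 0 h libraries, passed the same filter only through 2 h and had to differ.

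In the edgeR fit without the 16-month culture of animal 3, the 2 h response differed between 16-month and 5-month cultures for 3 genes. MIDN, on chromosome 7 from 45330381 to 45337527, rose less at 16 months, from 15.8, 16.8 and 16.6 CPM to 35.1, 39.8 and 30.0 CPM, than at 5 months, from 15.7, 14.8 and 16.6 CPM to 73.4, 68.8 and 84.8 CPM. The difference in log2 response was -1.07 ± 0.06 (edgeR adjusted p = 0.0125). SH3GLB1 and SEP15 lie near each other on chromosome 3, at 57410644 to 57457439 and 57292922 to 57328211. SH3GLB1 had a difference of 2.77 ± 0.07 (edgeR adjusted p = 0.000153), and went from 8.59, 9.1 and 59.5 CPM to 71.4, 72.1 and 36.3 CPM in the 16-month cultures. In the 5-month cultures it went from 8.06, 61.9 and 58.9 CPM to 10.0, 77.1 and 64.9 CPM, so the culture with the low start stayed low. SEP15 had a difference of 1.40 ± 0.11 (edgeR adjusted p = 0.0415), and went from 38.4, 52.1 and 35.0 CPM to 120.8, 128 and 136 CPM in the 16-month cultures. At 5 months animal 1 was at 40.4 CPM while the others were at 137 and 124 CPM at 0 h. At 0 h, levels fell apart into a low and a high range at both ages for SH3GLB1 and at 5 months for SEP15. With animal 3 the 3 differences were -1.18, 1.67 and 1.56, each with an edgeR adjusted p of 0.657.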

How the results depend on the processing

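With 262 genes called in the 16-month cultures, alternatives of scaling, low-count filter, voom, robust prior, overlap and fold minimum gave 182 to 307. The count was 511 by the edgeR likelihood-ratio test (58.9% higher against 71.76%), 546 by DESeq2 (60.07%), 503 by limma-voom with sample quality weights (65.81%), 496 over all 18 libraries (60.28%) and 0 with the 16-month libraries alone and animal as block (744 at an unadjusted p under 0.05). Upper-quartile factors gave 258 (62.79% higher), and fits without the replicate block, whose pairing the labels give, 355. Scaling by library size alone gave 182 and moved the median of all genes from -0.04 to -0.29. Leaving out 1 culture gave 34 to 520 genes. Without animal 3 the count of 520 became 427 to 630 under alternatives, and 3682 (1840 higher and 1842 lower) with no fold change minimum. The difference between ages, 0 genes, became 10 by the likelihood-ratio test, 14 by DESeq2 and 38 with quality weights, and 0 to 3 when 1 culture was left out. Of 81 called genes named here, 1671 alternative values held 1359 calls, 312 that were lost and 0 changes of sign. Among genes not called, signs changed as follows. With library size alone the log2 fold change was -0.018 for CLEC16A, -0.022 for RELA, -0.20 for FOS and -0.091 for VIM, and with upper-quartile factors it was -0.086 for FOS. By limma-voom C16H1orf129 was at 2.28, over all 18 libraries at 1.58 and with no block at 3.94, where LOC785629 was at 0.44. With quality weights CLEC16A was at -1.11 and VIM at -0.071. Leaving out 1 culture gave ranges of -0.76 to 0.14 for CD14, -4.56 to 1.23 for LOC785629, -2.16 to 2.69 for C16H1orf129, -0.49 to 1.62 for RASA2, -1.02 to 1.28 for CLEC16A, -0.25 to 0.33 for FOS, -0.71 to 0.0057 for COL3A1 and -0.073 to 0.29 for VIM. The cause of these changes was not tested, and the planned search of promoter motifs was not run.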
